A study of Mus musculus with 13 samples.

Results

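Of 32285 genes counted in mouse mammary fibroblasts, 10 are described here, the transcription factor genes Twist1, Twist2, Prrx1, Prrx2, Snai1, Snai2, Zeb1, Zeb2, Runx1 and Runx2, chosen by symbol as 5 pairs of paralogues. Their unique molecular identifier (UMI) counts were summed over the fibroblast barcodes of each of 13 droplet libraries, which numbered 100523 of the 120355 barcodes. A fibroblast barcode had 500 to 7500 genes, at most 10% mitochondrial UMIs, at least 50 UMIs of Dcn, Lum and Col1a2 together per 10000, and no UMI of Epcam, Pecam1, Rgs5, Sox10, Ptprc or Myog. All 10 genes passed the filter on low counts in every fit.

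The study followed fibroblasts through mammary development, under hormone exposure and in a Wnt1 tumour model. Puberty (4 weeks by the label), the adult virgin (9 weeks), pregnancy day 14.5, lactation day 10 and involution day 4 were each covered by 1 library of sorted Lin-CD24- stroma from C57BL/6 females. Placebo and MPA+E, pellets of medroxyprogesterone acetate with estradiol, were each covered by 2 libraries of the same sort from C57BL/6 females labelled 9 weeks. Each of these 9 wild-type libraries pooled 2 females according to the labels or the study's methods. Hyperplasia and tumour were each covered by 2 libraries of sorted GFP+ cells from raGFP-Wnt1 mice on a mixed C57BL/6 and FVB background. All 4 of those libraries carry both the Pdgfra-GFP reporter allele and the MMTV-Wnt1 transgene, which the MMTV promoter drives mainly in mammary epithelium. Mouse 1 (45 weeks) and mouse 2 (17 weeks) each gave 1 hyperplasia and 1 tumour library, so those libraries are paired by mouse.

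Twist1 and Twist2 are basic helix-loop-helix factors that bind DNA as dimers with E proteins such as Tcf3 and Tcf4, and the Id proteins oppose them by sequestering those partners. Prrx1 and Prrx2 are homeodomain factors of limb and craniofacial mesenchyme, Snai1, Snai2, Zeb1 and Zeb2 are zinc finger repressors of epithelial genes, and Runx1 and Runx2 are runt domain factors that work with the shared subunit Cbfb. In epithelium the Twist, Snail and ZEB factors are best known for epithelial-mesenchymal transition, whereas fibroblasts are mesenchymal and carry them as part of their ordinary state. Runx1 is a haematopoietic regulator that mammary luminal cells also use, and Runx2 is the master factor of osteoblasts.

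Gene positions are those of GENCODE M21 (build GRCm38). Twist1 lies on the plus strand of chromosome 12 (33957671 to 33959829), Twist2 and Prrx1 on chromosome 1, and Prrx2, Snai1 and Zeb2 on chromosome 2. Snai2 lies on the plus strand of chromosome 16 (14705852 to 14709385). Runx1 spans 92601466 to 92826149 on the minus strand of the same chromosome, and Runx2 spans 44495987 to 44814797 on the minus strand of chromosome 17.

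The windows of 300 bases around the annotated starts (250 before, 50 after; RefSeq, GRCm38.p6) were searched on both strands for the E-box CAGGTG that the Snail and ZEB factors bind and for the RUNX core motif TGTGGT. Windows were found for 8 members, 12 windows in all, and an E-box stood in 2 of the 12, against 20.2% of the 32851 windows of all genes. A RUNX motif stood in 2 of the 12, against 16.8%. Both shares are near the background and say nothing particular of the members. The stretches are shown as the matches found. Capitals mark the motif, each stretch is 30 bases of the gene's own strand, and the number gives the motif's first base relative to the start.
Snai1 E-box at -126 (chr2:167538057-167538086, plus strand): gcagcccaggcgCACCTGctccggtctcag
Runx1 E-box at -136 (chr16:92826193-92826222, minus strand): cctgggggagggCAGGTGgagggcaggaag
Runx1 RUNX motifs from 28 (chr16:92826029-92826058, minus strand): acctcataaacaACCACAgaACCACAagtt
Runx2 RUNX motif at -80 (chr17:44814690-44814719, minus strand): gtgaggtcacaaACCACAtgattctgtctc
Runx2 RUNX motifs from 23 (chr17:44814587-44814616, minus strand): gcctcacaaacaACCACAgaACCACAagtg
The 2 RUNX genes share a tandem pair of the motif shortly after the start. A match describes the letters of the window and does not show binding.

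The libraries held 4236 to 11951 fibroblast barcodes each, and the median fibroblast barcode held 3990 UMIs in pregnancy and 20256 in Tumour 2. Dcn, Lum, Pdgfra and Col1a2 together made up 17212 to 26440 counts per 1000000 UMIs (CPM), while the summed markers of luminal, Schwann, endothelial, pericyte, basal epithelial, immune and muscle cells reached at most 74.2 (Hyperplasia 2), 53.6 (puberty), 46.0 (MPA+E 2), 43.2 (Tumour 1), 37.7 (pregnancy), 14.7 (Tumour 1) and 7.82 CPM (puberty), with Epcam, Sox10, Pecam1, Rgs5, Ptprc and Myog at 0 by the gate. Pairs of libraries shared 5 to 51 barcodes, at most 0.5395% of the smaller library. Counting intervals below are 95% intervals and cover counting error only.

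To compare the members with cells that are not fibroblasts, cells that reached 3000 UMIs were thinned to that depth. Shallower cells were left out, and the share of the kept cells with a UMI was taken. This kept 91443 of 100523 fibroblast, 366 of 373 luminal and 166 of 556 endothelial barcodes. In fibroblasts Prrx1 was found in 60.5% of 91443 cells, Zeb2 in 56.9%, Twist1 in 40.3%, Zeb1 in 35.4% and Prrx2 in 18.03%. The same genes were found in 6.01%, 1.91%, 3.28%, 1.37% and 0.273% of 366 luminal barcodes, and in 5.42%, 7.83%, 1.81%, 28.9% and 0% of 166 endothelial barcodes (exact upper limit 2.20% for Prrx2). These 5 genes were thus found more widely in fibroblasts than in luminal barcodes, with Zeb1 also common in endothelial ones.

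The other members were found in fewer fibroblasts. Twist2 was found in 8.40% of fibroblasts, 0.820% of luminal and 0% of endothelial barcodes. Runx2 was found in 6.76%, 3.55% and 0%. Snai1 was found in 4.28% of fibroblasts and in 12.05% of endothelial barcodes, Snai2 in 6.28% of fibroblasts and 15.0% of luminal barcodes, and Runx1 in 12.8% of fibroblasts and 70.5% of luminal barcodes. For the last 3 genes the pooled share in fibroblasts was below that of a comparison type and is not read as fibroblast expression by itself. Each was also found in 0.820% of luminal (Snai1), 1.20% of endothelial (Snai2) and 3.01% of endothelial barcodes (Runx1). The pooled Runx1 share mixes unlike libraries, since its share in tumour fibroblasts was far above that in hyperplasia fibroblasts, as given below. Median depth per library was 7917 to 26916 UMIs in luminal and 1307.5 to 30541 in endothelial barcodes.

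**Figure D1:**
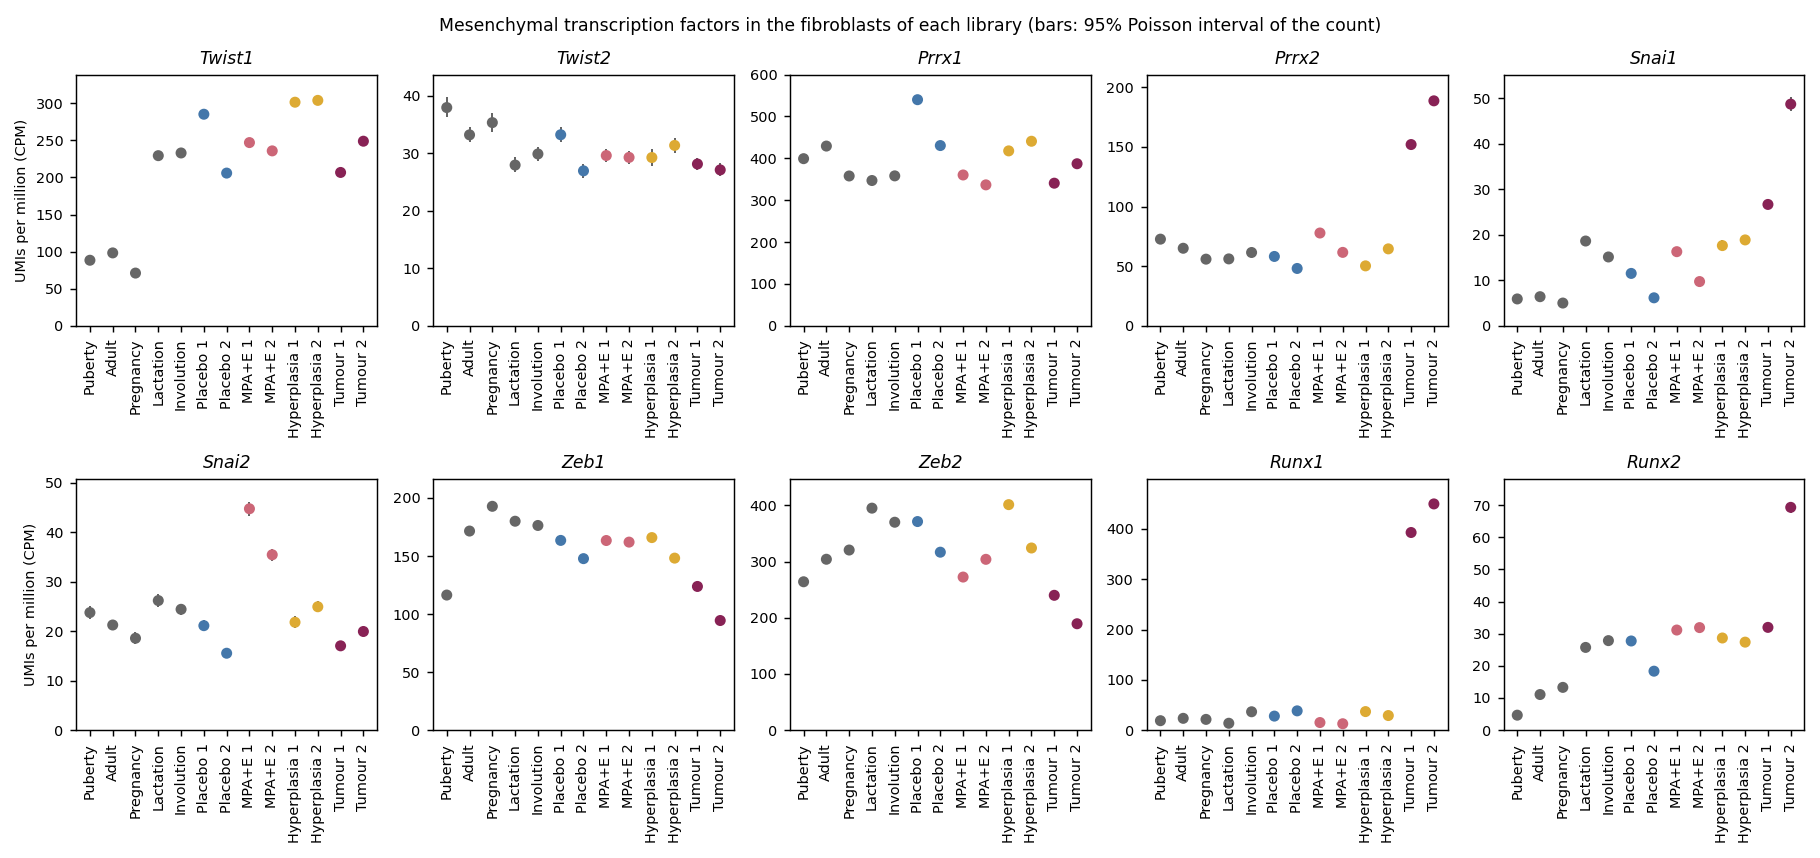
Level of each member in the fibroblasts of the 13 libraries, in UMIs per 1000000 (CPM, linear axes from 0). Points are libraries coloured by group and bars are 95% Poisson intervals. Runx1 and Prrx2 stand highest in both tumour libraries, Snai2 in both MPA+E libraries, and Twist1 lowest in puberty, adult and pregnancy.

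Across the 5 stages, Twist1, Snai1, Runx1 and Runx2 spanned more than 2 fold between the highest and the lowest library, and Twist2, Prrx1, Prrx2, Snai2, Zeb1 and Zeb2 did not. The stages have no replicate library, so no test was made. The 4 of 10 members past 2 fold stand beside 20.2% of the 10189 genes with at least 5 CPM in some stage library. The median ratio was 1.58 over the members and 1.55 over those genes.

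Twist1 stood at 88.4 CPM for puberty, 98.3 for the adult and 71.1 for pregnancy, but at 229 for lactation and 233 for involution. Lactation and involution were high and their counting intervals overlapped (226 to 233 and 229 to 236 CPM), whereas the other 3 stages were low. The ratio of involution to pregnancy was 3.28 (counting interval 3.16 to 3.40). Its paralogue Twist2 moved little, from 28.0 CPM in lactation to 38.0 in puberty.

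Snai1 stood at 5.91 CPM for puberty, 6.41 for the adult and 5.01 for pregnancy, but at 18.6 for lactation and 15.1 for involution. The lowest 3 stages were again puberty, adult and pregnancy, and the puberty interval overlapped those of both its neighbours in this order. The ratio of lactation to pregnancy was 3.72 (3.23 to 4.29). Snai2 stayed between 18.6 CPM in pregnancy and 26.2 in lactation.

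Runx2 climbed from 4.66 CPM for puberty over 11.1 for the adult and 13.3 for pregnancy to 25.7 for lactation and 27.8 for involution. Puberty was lowest and the last 2 stages highest, with a ratio of involution to puberty of 5.98 (5.21 to 6.88). Runx1 had another order, with 13.7 CPM in lactation, 18.8 in puberty, 21.4 in pregnancy, 23.5 in the adult and 36.5 in involution. Lactation and involution, neighbours in time, were thus its extremes, and their ratio was 2.67 (2.47 to 2.88). The summed luminal markers were also lowest in lactation, at 7.55 CPM, against 13.9 for involution and 24.5, 32.9 and 30.6 for puberty, adult and pregnancy. Most of that sum was Krt19, with Cldn3 at most 3.03 CPM (adult) and Krt8 and Krt18 at most 6.27 and 1.98 CPM (both pregnancy). The part of these markers in the Runx1 levels was not tested.

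The remaining members varied less. Zeb1 ranged from 116 CPM in puberty to 193 in pregnancy, a ratio of 1.66, and Zeb2, a ratio of 1.496 apart, from 264 (puberty) to 395 (lactation). Prrx1 ranged from 347 in lactation to 429 in the adult, a ratio of 1.24. Prrx2 ranged from 55.9 in pregnancy to 72.7 in puberty, a ratio of 1.30. Both ZEB genes were lowest in puberty.

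The adult and the placebo libraries are alike in strain, sort and labelled age, yet Twist1 was 2.90 and 2.09 times as high in Placebo 1 and Placebo 2 as in the adult library. Of 9812 genes, 2.36% differed by at least 2 fold in the same direction from both placebo libraries, and Twist1 was the only member among them. Runx2 was 2.50 and 1.66 times and Snai1 1.798 and 0.961 times as high. Over all 13 libraries, puberty, adult and pregnancy were the lowest 3 for both Twist1 and Runx2. Median depth moved with this, at 3990 to 6663 UMIs in those 3 libraries and 7105 to 20256 in the other 10. The CPM in the deeper cells of a library over that in its shallower cells, divided at the median UMI count, had a median of 0.920 for Twist1 (range 0.714 to 1.28 over the libraries), 0.609 for Runx2 (0.398 to 2.14) and 0.650 for Snai1 (0.410 to 1.18). In the stage libraries, from puberty to involution, this ratio was 1.28, 0.952, 1.04, 1.18 and 1.02 for Twist1. In the same order it was 1.14, 0.487, 2.14, 1.85 and 1.32 for Runx2 and 0.829, 0.714, 1.18, 1.09 and 0.650 for Snai1. The heat shock gene Hspa1b was also low in puberty, adult and pregnancy, at 75.6, 225 and 43.3 CPM against 890 CPM in lactation and 1019 CPM in involution, but it was 223 and 256 CPM under placebo, near the adult level, and 43.4 to 459 CPM in the remaining 6 libraries. The part of depth and of the heat shock genes in these results was not tested. Which libraries were prepared or sequenced together is not given in the sources used here, so a batch and the stages cannot be told apart.

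The fibroblasts were then grouped into states by clustering the stage, hormone and raGFP-Wnt1 libraries separately, with all members left out of the clustering genes. Clusters were named by likeness to fixed markers: progenitor (Pi16, Dpp4), preadipocyte (Fabp4, Cd36), extracellular matrix (ECM) remodelling (Crabp1, Stra6, Pla2g7), lobular (Thbs4, Bmp5), adipogenesis-regulatory (Gdf10, Clec11a), cycling and myofibroblastic (Acta2, Lrrc15). The clusters without enough markers, 7.12% to 25.5% of fibroblasts in the wild-type libraries and 4.78% to 39.5% in the raGFP-Wnt1 libraries, stay unnamed. The names were rebuilt from markers, and any departure from the published states may lie in that step. Clusters come from the same cells, so state levels are a description and carry no test.

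**Figure D2:**
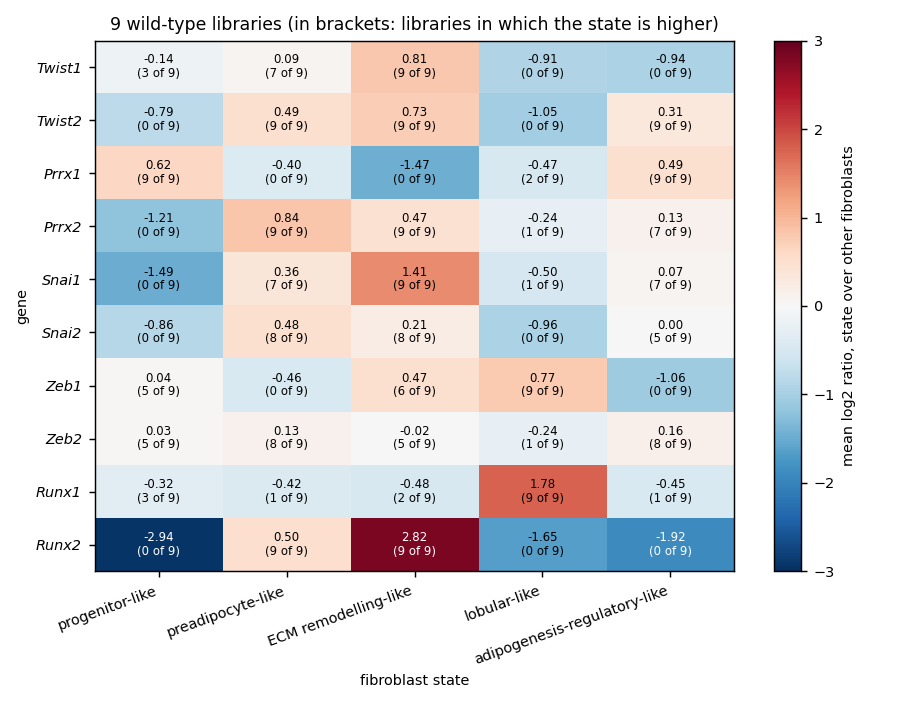
Mean over the 9 wild-type libraries of the log2 ratio of a member's CPM (plus 1) in a state to that in the other fibroblasts of the same library, with the number of libraries in which the state is higher in brackets. Rows are members and columns are states. Runx2 has the widest span, from -2.94 in the progenitor-like to 2.82 in the ECM remodelling-like state.

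Runx2 marked the ECM remodelling-like state in the 9 wild-type libraries. It measured 53.8 to 95.4 CPM there (median 68.4) and 3.18 to 16.3 CPM in the other fibroblasts, and the ranges did not overlap. The mean log2 ratio was 2.82 (SD 0.80, n = 9 libraries). It measured 0.290 to 6.94 CPM in the progenitor-like state, below the other fibroblasts in all 9 libraries (mean log2 ratio -2.94, SD 0.46). It was also lower in all 9 in the adipogenesis-regulatory-like state (-1.92) and the lobular-like state (-1.65), and slightly higher in all 9 in the preadipocyte-like state (0.50).

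The other members raised in the ECM remodelling-like state were Snai1 (mean log2 ratio 1.41), Twist1 (0.81), Twist2 (0.73) and Prrx2 (0.47), each higher in 9 of 9 libraries. Prrx1 ran the other way, at 107 to 229 CPM there against 391 to 622 CPM in the other fibroblasts, lower in 9 of 9 libraries (-1.47). Prrx1 and its paralogue Prrx2 were thus opposite in that state. Progenitor-like cells had them opposite in the other direction, with Prrx1 at 0.62 (9 of 9 higher) and Prrx2 at -1.21 (9 of 9 lower).

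The progenitor-like state was also low in Snai1 (-1.49), Snai2 (-0.86) and Twist2 (-0.79), each lower in 9 of 9 libraries. With a limit of 1.5 fold in every library, Prrx2, Snai1 and Runx2 were lower in that state, beside 5.53% of the 10696 genes measured, and no member was higher, beside 3.81%. In the 4 raGFP-Wnt1 libraries Twist2, Prrx2, Snai1 and Runx2 were lower by that limit, beside 5.96% of 10762 genes, and none was higher (4.23%). At the same limit Snai1 and Runx2 were higher (3.31% of 11083 genes) and Prrx1 lower (4.41%) in the ECM remodelling-like state of the wild-type libraries. In that state of the 4 raGFP-Wnt1 libraries no member was past the limit in either direction, beside 3.78% of 10775 genes higher and 3.42% lower. The mean log2 ratios there were 1.28 for Runx2 (SD 0.99), 0.87 for Snai1 (SD 0.45) and -0.75 for Prrx1 (SD 0.30), each with the same direction in 4 of 4 libraries.

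Runx1 marked the lobular-like state. It measured 42.0 to 120 CPM there (median 57.2) and 11.3 to 34.4 CPM in the other fibroblasts, with no overlap and a mean log2 ratio of 1.78 (SD 0.53, 9 of 9 higher). Zeb1 was higher in the same state (0.77, 9 of 9), and Twist2 (-1.05), Snai2 (-0.96) and Twist1 (-0.91) were lower in 9 of 9. At 1.5 fold in every library Runx1 alone was higher, beside 1.40% of 10702 genes, and Twist2 alone lower, beside 2.62%.

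In the adipogenesis-regulatory-like state Zeb1 (-1.06) and Twist1 (-0.94) were lower in 9 of 9 libraries and Prrx1 (0.49) and Twist2 (0.31) higher. Twist1 and Runx2 were lower there by 1.5 fold in every library, beside 4.01% of 10777 genes, and no member was higher (2.31%). In the preadipocyte-like state Prrx2 was higher in 9 of 9 (0.84), and no member passed 1.5 fold in every library (0.564% of 10647 genes higher, 2.05% lower). In the raGFP-Wnt1 libraries no member passed that limit in the adipogenesis-regulatory-like (1.5% of 10899 genes higher, 2.39% lower) or preadipocyte-like state (0.766% of 10699 genes higher, 1.48% lower). Zeb2 differed least, with mean log2 ratios of -0.24 to 0.16 in the 5 states. In all, 28 of the 50 pairs of member and state went the same way in all 9 libraries, beside 33.1% of such pairs over all genes measured.

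The share of cells in the ECM remodelling-like state moved with Runx2 across the stages, at 1.85% for puberty, 11.9% for the adult, 11.1% for pregnancy, 23.0% for lactation and 28.6% for involution. Within that state Runx2 measured 79.0, 62.0, 65.4, 53.8 and 55.2 CPM in the same order, so its lowest level by stage was in lactation. Progenitor-like cells measured 0.290, 1.55, 1.44, 6.94 and 4.25 CPM. In a sum over all fibroblasts, more cells of a state and more RNA per cell cannot be told apart.

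Twist1 kept its order by stage within states. In the progenitor-like state it measured 102, 105, 74.0, 194 and 221 CPM from puberty to involution, and in the adipogenesis-regulatory-like state 51.3, 54.7, 40.4, 143 and 157 CPM. Lactation and involution were above the other 3 stages in all 5 named states common to the stages. Runx1 in involution measured 41.8 CPM in the ECM remodelling-like and 39.9 CPM in the preadipocyte-like state, against 7.38 to 18.8 and 12.7 to 18.4 CPM in the other 4 stages.

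**Figure D3:**
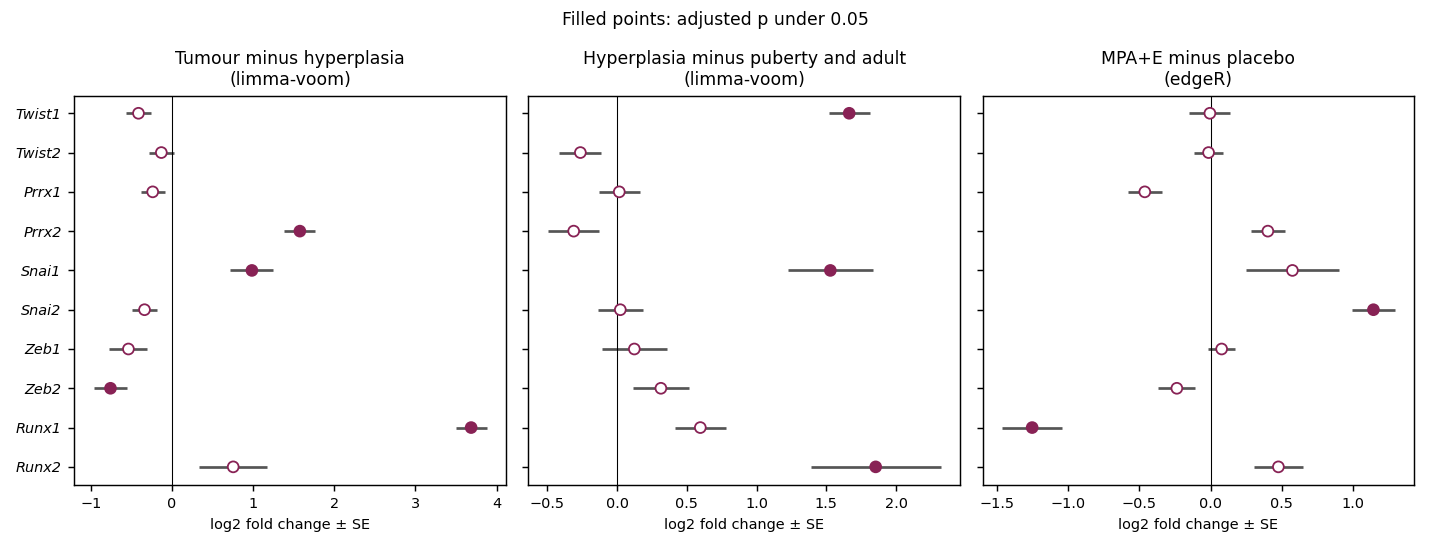
Log2 fold change of each member with its standard error (SE) in 3 comparisons: tumour minus hyperplasia and hyperplasia minus puberty and adult (both limma-voom), and MPA+E minus placebo (edgeR). Filled points have an adjusted p under 0.05. Runx1 lies at 3.69 in the tumour and at -1.25 in the MPA+E comparison.

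Between tumour and hyperplasia, 3 members rose and 1 fell, beside 29.3% of the 16302 genes tested (15.4% higher, 13.9% lower). Runx1 measured 36.9 and 29.04 CPM in hyperplasia and 393 and 449.6 CPM in tumours. Both tumour libraries were far above all 11 others, whose highest value was 38.3 CPM. The difference was 12.9 fold (log2 3.69 ± 0.19 SE, limma-voom with Benjamini-Hochberg adjustment, adjusted p = 0.0012, n = 2 libraries each). It was called without each library in turn (log2 3.50 to 3.86) and with the mouse as a block.

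Prrx2 measured 50.3 and 64.6 CPM in hyperplasia and 152 and 189 CPM in tumours, with no overlap. It rose 2.98 fold (log2 1.58 ± 0.19 SE, limma-voom, adjusted p = 0.0064), and without Hyperplasia 1 the adjusted p was 0.058. Its paralogue Prrx1 measured 418 and 441 CPM in hyperplasia and 341 and 387 CPM in tumours, and its log2 difference of -0.24 did not pass the test (limma-voom, adjusted p = 0.25).

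Snai1 measured 17.6 and 18.9 CPM in hyperplasia and 26.7 and 48.7 CPM in tumours. Both tumour values were higher, with Tumour 2 well above Tumour 1, and the rise was 1.98 fold (log2 0.98 ± 0.26 SE, limma-voom, adjusted p = 0.036). The call was lost without Hyperplasia 1 (adjusted p = 0.18) or Hyperplasia 2 (0.13), and without the myofibroblastic-like cells of the tumours the limma-voom adjusted p was 0.19. Snai2 measured 21.8 and 24.9 CPM in hyperplasia and 17.0 and 19.9 CPM in tumours (log2 -0.34, limma-voom adjusted p = 0.14).

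Zeb2 measured 401 and 324 CPM in hyperplasia and 240 and 189 CPM in tumours. It fell by 0.76 on the log2 scale (SE 0.20, limma-voom, adjusted p = 0.036). The call was lost without Hyperplasia 1 (0.20), Hyperplasia 2 (0.084) or Tumour 2 (0.088), and without the tumours' myofibroblastic-like cells (0.084). Zeb1 measured 166 and 148 CPM against 124 and 94.4 CPM (log2 -0.54, limma-voom adjusted p = 0.12) and was called only without Tumour 1 (-0.75, 0.034).

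The remaining members did not pass the test between tumour and hyperplasia. Runx2 measured 28.7 and 27.4 CPM in hyperplasia and 32.0 and 69.3 CPM in tumours, so that the 2 tumour libraries differed from each other more than the first did from hyperplasia. Its log2 difference was 0.75 ± 0.42 SE (limma-voom, adjusted p = 0.20), called without Tumour 1 only (1.29, 0.020). Twist1 measured 301 and 304 CPM against 207 and 249 CPM (log2 -0.41, adjusted p = 0.083), and Twist2 29.3 and 31.4 against 28.1 and 27.1 CPM (log2 -0.13, adjusted p = 0.52).

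Cell type markers also moved in this comparison. The summed luminal markers were 26.1 and 74.2 CPM in hyperplasia and 6.44 and 1.23 CPM in tumours. Of that sum Cldn3 made up 6.14 and 15.2 CPM in hyperplasia and 2.69 and 0.0911 CPM in tumours, and most of the rest was Krt19. The Schwann markers were 16.5 and 22.7 CPM against 9.89 and 2.10 CPM, and the endothelial markers 5.77 and 12.8 CPM against 2.96 and 3.71 CPM. The pericyte markers were higher in tumours, at 43.2 and 34.4 CPM against 20.8 and 19.5 CPM. Basal epithelial markers were scarce, at 1.98 and 2.75 CPM in hyperplasia and 1.87 and 0.900 CPM in tumours, and the immune and muscle markers overlapped between the groups. Immediate early and heat shock genes, which respond to tissue handling, summed to 53200 and 45244 CPM in hyperplasia and 28942 and 20016 CPM in tumours. The part of these genes and markers in the members' changes was not tested.

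Thinned to 3000 UMIs, Runx1 was found in 8.91% and 7.36% of hyperplasia fibroblasts and in 49.2% and 63.2% of tumour fibroblasts. Without thinning the shares were 21.1%, 16.9%, 70.1% and 89.0%. Prrx2 was found in 13.4% and 17.6% of thinned hyperplasia cells and in 31.4% and 39.9% of thinned tumour cells. Both tumour libraries were above both hyperplasia libraries for each gene.

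**Figure D4:**
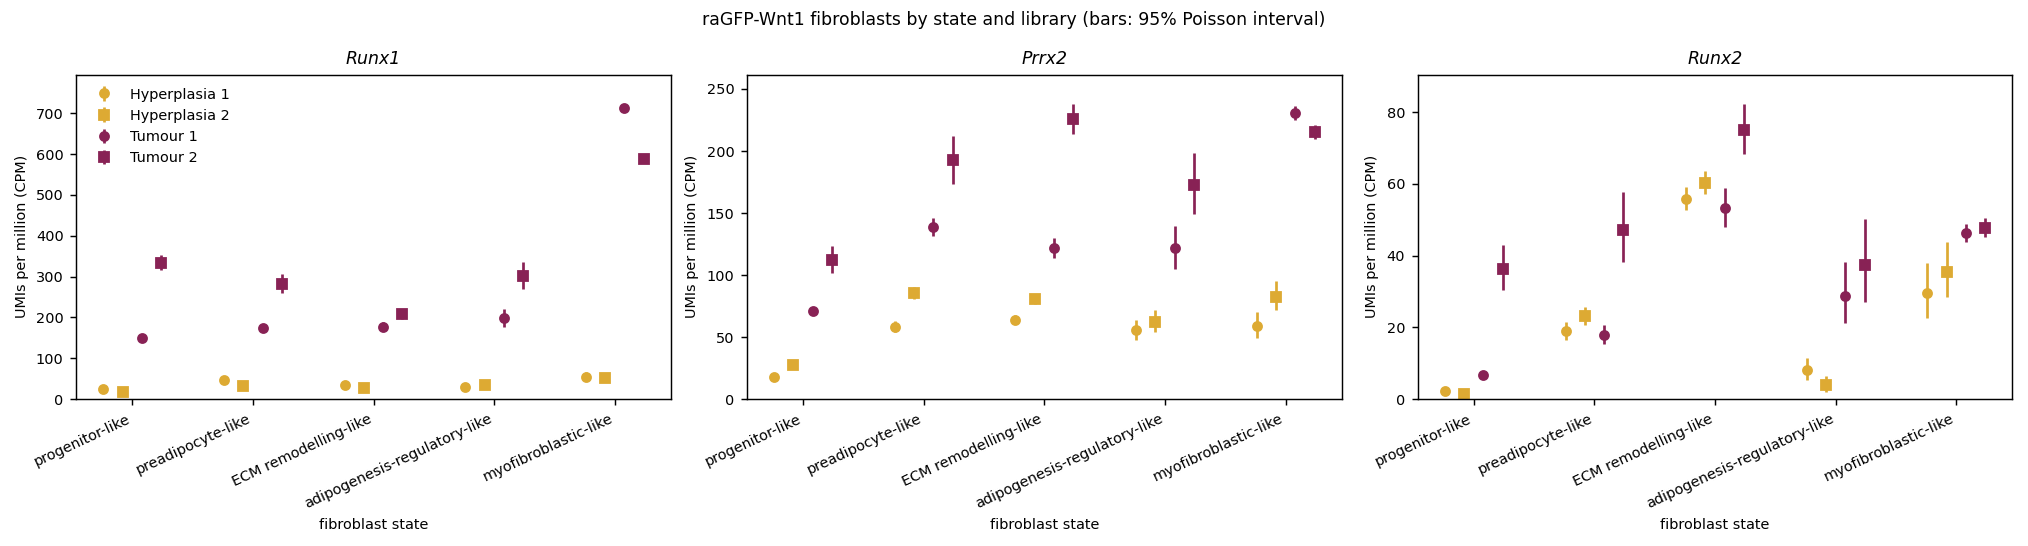
Level of Runx1, Prrx2 and Runx2 in 5 fibroblast states of the 2 hyperplasia and 2 tumour libraries, in UMIs per 1000000 (CPM) with 95% Poisson intervals. Circles are mouse 1 and squares mouse 2. Runx1 in tumours lies between 151 and 713 CPM and in hyperplasia between 18.2 and 54.4 CPM.

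The tumour comparison was repeated within states held by at least 50 cells in all 4 libraries. Runx1 rose in all 5 of them. In the progenitor-like state it measured 23.6 and 18.2 CPM in hyperplasia and 151 and 334 CPM in tumours (log2 3.58 ± 0.38 SE, limma-voom, adjusted p = 0.012, beside 3.44% of genes called in that state). In the myofibroblastic-like cluster it measured 54.4 and 52.2 CPM against 713 and 588 CPM (log2 3.49 ± 0.19 SE, limma-voom, adjusted p = 6.7e-05, beside 30.4% of genes). No hyperplasia value reached a tumour value in any state.

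The other 3 states gave smaller differences for Runx1. The log2 values were 2.83 in the adipogenesis-regulatory-like state, 2.53 in the ECM remodelling-like state and 2.51 in the preadipocyte-like state, with limma-voom adjusted p-values of 0.00083, 0.0078 and 0.019 beside 5.32%, 7.09% and 3.88% of genes called. In the preadipocyte-like state the call was lost without Hyperplasia 1 (0.11) or Hyperplasia 2 (0.15). The preadipocyte-like cluster of the raGFP-Wnt1 libraries had all 5 preadipocyte markers at 2 fold and also 4 of 6 lobular markers, with Thbs4 among its top 10 genes, and these libraries had no lobular-like cluster of their own. Whether the rise differed between states was not tested.

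Prrx2 rose in 4 of the 5 states. It measured 17.9 and 27.8 CPM in hyperplasia and 70.8 and 112 CPM in tumours in the progenitor-like state (log2 2.06, limma-voom adjusted p = 0.026). In the myofibroblastic-like cluster it measured 59.1 and 82.7 CPM against 231 and 215 CPM (log2 1.55, adjusted p = 0.0011). Calls with adjusted p of 0.015 in the adipogenesis-regulatory-like and 0.0499 in the preadipocyte-like state were lost without single libraries (Hyperplasia 1, 0.063, or Tumour 2, 0.085, in the former, and Hyperplasia 1, 0.26, Hyperplasia 2, 0.18, or Tumour 2, 0.074, in the latter). In the ECM remodelling-like state it measured 64.0 and 80.6 CPM against 122 and 226 CPM (log2 1.06, adjusted p = 0.071), and with the mouse as a block this passed (log2 1.06, adjusted p = 0.0060).

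Runx2 rose in the adipogenesis-regulatory-like state, from 8.01 and 3.83 CPM in hyperplasia to 28.7 and 37.2 CPM in tumours (log2 2.46 ± 0.38 SE, limma-voom, adjusted p = 0.0077), and without Tumour 2 the adjusted p was 0.075. Progenitor-like cells measured 2.19 and 1.43 CPM against 6.79 and 36.2 CPM (log2 2.69 ± 0.87 SE, adjusted p = 0.14), with most of the rise in Tumour 2. In the ECM remodelling-like state, where it is highest in hyperplasia, it measured 55.8 and 60.3 CPM against 53.2 and 75.0 CPM (log2 -0.02).

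In the myofibroblastic-like cluster 4 members fell, Zeb2 by 1.06, Zeb1 by 0.78, Prrx1 by 0.75 and Twist1 by 0.62 on the log2 scale, with limma-voom adjusted p of 0.0032, 0.0082, 0.010 and 0.015, beside 16.7% of genes lower. Without Hyperplasia 1 these adjusted p-values were 0.070, 0.12, 0.14 and 0.13, and without Hyperplasia 2 those of Zeb1, Prrx1 and Twist1 were 0.087, 0.098 and 0.17. The cluster differed in makeup between the groups. It held 265 and 322 cells in hyperplasia with Acta2, the smooth muscle actin of myofibroblasts, at 1.41 and 0.835 CPM, and 2306 and 1375 cells in tumours with Acta2 at 531 and 778 CPM. The hyperplasia cells of that cluster thus lack the defining marker. At a clustering resolution of 0.6, no raGFP-Wnt1 cluster was named myofibroblastic-like. A cluster with 4 of 6 myofibroblastic markers at 2 fold stayed unnamed there because it also carried pericyte markers. The comparison within this cluster therefore depends on the resolution.

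An unnamed cluster that also held most of its cells in tumours (1335 and 1659, against 78 and 102 in hyperplasia) carried Acta2 at 271 and 833 CPM there and Runx1 at 482 and 442 CPM, against 39.2 and 50.8 CPM of Runx1 in hyperplasia. With the mouse as a block, member calls over the 5 states rose from 14 to 22, and the share of all genes called rose too, to 3.6% in the progenitor-like, 12.4% in the preadipocyte-like, 16% in the adipogenesis-regulatory-like and 26.2% in the ECM remodelling-like state and to 42.4% in the myofibroblastic-like cluster. Zeb2 then also fell in the adipogenesis-regulatory-like (adjusted p = 0.029) and ECM remodelling-like states (0.023). Twist1 and Zeb1 also fell in the ECM remodelling-like state (0.032 and 0.023) and Snai2 in the myofibroblastic-like cluster (0.036), and Snai1 rose in the adipogenesis-regulatory-like state and the myofibroblastic-like cluster (0.015 in both), all by limma-voom with the mouse as a block.

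The fixed list of 21 partners and inhibitors of these factors held 2 genes higher and 4 lower in tumours, a share near the 29.3% of all genes called in this comparison (15.4% higher, 13.9% lower), so the count says nothing particular of the partners. Cbfb, the shared subunit of the RUNX factors, rose by log2 0.64 (limma-voom adjusted p = 0.026), and the E protein gene Tcf3 by 0.48 (0.039). The corepressor Tle4 fell by 2.26, and the inhibitors Id1, Id4 and Id3 fell by 1.31, 1.09 and 0.71 on the log2 scale. The median over the list was -0.20, and that over all genes -0.01.

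Of 16 tested genes of 19 reported mesenchymal targets, 10 rose and none fell in tumours relative to hyperplasia. This stands beside 15.4% of all genes higher and 13.9% lower, and the list median was 1.45. The list was chosen with earlier results of these data known. The summed CPM of the 19 genes was lowest of all libraries in hyperplasia (24677 and 19455). It was 50652 and 58015 in tumours, against 61443 in puberty and 50479 in pregnancy. Abundant genes weigh most in that sum, such as Col3a1, at 24326 CPM in puberty and 17034 and 14899 CPM in tumours. Ccn2 was higher in both tumour libraries than in any other (at most 166 CPM, involution). The matricellular Ccn2 rose by log2 3.17 ± 0.23 SE and the N-cadherin gene Cdh2 by 2.89 ± 0.52 SE (limma-voom adjusted p = 0.0021 and 0.015). The matrix protein Spp1 measured 3.31 and 2.50 CPM in hyperplasia and 64.2 and 670 CPM in tumours (log2 6.19 ± 1.24 SE, adjusted p = 0.018), with a log2 value of 4.53 without Tumour 2 and 7.86 without Tumour 1. The collagenase Mmp13 was close to 0 in hyperplasia, at 0.0354 and 0.0276 CPM, and measured 8.47 and 25.5 CPM in tumours (limma-voom adjusted p = 0.016), so no fold is given. Both genes, known as targets of Runx2 in bone, were highest of the 4 libraries in Tumour 2, as Runx2, Runx1, Prrx2 and Snai1 were. Bglap, Sp7 and Ibsp of the same list did not pass the filter, at 0.0228, 0.0114 and 0.125 CPM in Tumour 2. A link of Runx2 to these genes was not tested. The 15 epithelial genes that these repressors are reported to act on were scarce in the fibroblasts, at 1.31 to 15.9 CPM per library for the sum of all 15, and 3 passed the filter. Of those, Cldn7 rose (log2 2.01, limma-voom adjusted p = 0.044) and Cldn3 fell (-4.19, 0.046). Cldn7 measured 0.0885 and 0.221 CPM in hyperplasia and 0.556 and 0.672 CPM in tumours, and Cldn3 6.14 and 15.2 against 2.69 and 0.0911 CPM.

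Among 13 upstream genes, Tgfb3 and Tgfb1 rose by log2 2.24 and 1.84 in tumours and Bmp4 and Bmp2 fell by 3.79 and 2.999. Among other paralogues Scx, a tendon factor, rose (3.26), and Tcf15 and Tcf21 fell (-2.75 and -1.57). Of 24 other fibroblast transcription factors, 5 rose and 5 fell, with Heyl (2.74) and Foxd1 (-3.11) at the ends. These counts, too, stand beside 15.4% of all genes higher and 13.9% lower. All of these calls had limma-voom adjusted p of 0.0028 to 0.049. Some rest on low levels. Scx measured 0.566 and 0.221 CPM in hyperplasia and 2.49 and 4.59 CPM in tumours, and Tcf15 0.779 and 0.538 against 0.117 and 0.0684 CPM. Tcf21 measured 1.47 and 2.26 against 0.966 and 0.387 CPM, and Foxd1 1.24 and 0.980 against 0.244 and 0.0570 CPM. Of the 83 tested genes of all these lists, 35 were called in tumours (42.2%, beside 29.3% of all genes), and of the 35, 4 were called without Hyperplasia 1, 4 without Hyperplasia 2, 27 without Tumour 2 and 35 without Tumour 1.

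Between hyperplasia and normal gland (puberty and adult joined), Twist1, Snai1 and Runx2 rose and no member fell, beside 14% of 16302 genes (7.7% higher, 6.29% lower). Twist1 measured 88.4 and 98.3 CPM in puberty and adult and 301 and 304 CPM in hyperplasia. The rise was 3.17 fold (log2 1.66 ± 0.15 SE, limma-voom, adjusted p = 0.0067). Snai1 rose 2.89 fold (log2 1.53 ± 0.30 SE, adjusted p = 0.032), and Runx2, at 4.66 and 11.1 CPM against 28.7 and 27.4 CPM, 3.61 fold (log2 1.85 ± 0.47 SE, adjusted p = 0.047).

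Leaving out libraries ended these calls. With 1 library left out the log2 rise was 1.34 to 2.53 for Runx2, 1.62 to 1.72 for Twist1 and 1.48 to 1.57 for Snai1. Twist1 was lost without the puberty library (limma-voom adjusted p = 0.072), Hyperplasia 1 (0.073) or Hyperplasia 2 (0.064). Snai1 and Runx2 were lost without any of the 4 libraries (0.12 to 0.19 and 0.098 to 0.23). No mouse links the normal with the hyperplasia libraries, so this comparison has no pairing. Strain, transgene, sort and age differ between these groups together with hyperplasia and cannot be told apart.

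The placebo libraries, also of wild-type gland, measured 285 and 206 CPM of Twist1 and 27.7 and 18.3 CPM of Runx2, above both normal libraries of that comparison. The share of ECM remodelling-like cells, the state with the most Runx2, was 44.8% and 40.3% in hyperplasia against 1.85% and 11.9% in puberty and adult. Runx1 measured 18.8 and 23.5 CPM in normal gland and 36.9 and 29.04 CPM in hyperplasia and did not pass the test (log2 0.60, limma-voom adjusted p = 0.072). The immediate early and heat shock genes summed to 21422 and 26906 CPM in normal gland and 53200 and 45244 CPM in hyperplasia, and the summed markers of endothelial cells were 23.5 and 27.5 CPM against 5.77 and 12.8 CPM, of immune cells 2.67 and 3.59 against 7.29 and 8.66 CPM, of basal epithelium 3.61 and 3.98 against 1.98 and 2.75 CPM, and of muscle 7.82 and 4.44 against 0.726 and 1.33 CPM. Their part in these results was not tested.

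Among the partners, 8 of 21 rose in hyperplasia and none fell, beside 7.7% of all genes higher and 6.29% lower, among them Id1 (log2 2.28), Id4 (1.66), Id3 (1.104) and Tcf4 (0.93). Id1, Id3 and Id4 thus rose in hyperplasia relative to normal gland and fell in tumours relative to hyperplasia, 2 comparisons that share the hyperplasia libraries, whereas Id2 passed in neither (log2 0.24 and -0.24, limma-voom adjusted p = 0.58 and 0.54). The placebo libraries, also of wild-type gland, stood outside this comparison. Id1, Id3, Id4, Yap1 and Tcf12 were lower in both placebo libraries than in both hyperplasia libraries. Tcf4, Smad2 and Wwtr1, which also rose, were not. Tcf4 measured 741 and 562 CPM under placebo, 723 and 704 CPM in hyperplasia and 310 and 431 CPM in puberty and adult. Of the 83 tested genes of all these lists, 21 were called in hyperplasia (25.3%, beside 14% of all genes), and of the 21, 0 were called without the puberty library, Hyperplasia 1 or Hyperplasia 2, and 3 without the adult library. The mesenchymal targets that rose included Ccn2 and Cdh11, and the upstream genes that rose were Bmp4 (3.76), Jag1 and Hes1. Placebo and hyperplasia libraries overlapped in Ccn2 (71.4 and 106.9 against 87.8 and 86.4 CPM) and in Jag1 (73.3 and 61.4 against 77.0 and 67.4 CPM). Cdh11, Bmp4 and Hes1 were lower in both placebo libraries than in both hyperplasia libraries. Of the 24 other transcription factors 4 rose, among them Mkx (2.26), and 1 fell, Creb3l1 (-1.39). Of the 6 tested paralogues Tcf21 rose (2.63) and Tcf15 fell (-1.49). Mkx was scarce, at 0.0821 and 0.0813 CPM in puberty and adult and 0.496 and 0.387 CPM in hyperplasia. Tcf21 measured 0.308 and 0.271 against 1.47 and 2.26 CPM, and Tcf15 1.35 and 2.15 against 0.779 and 0.538 CPM. Cldn3, Cldn7 and Krt8, the tested epithelial genes, did not pass by limma-voom (smallest unadjusted p = 0.11).

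**Figure D5:**
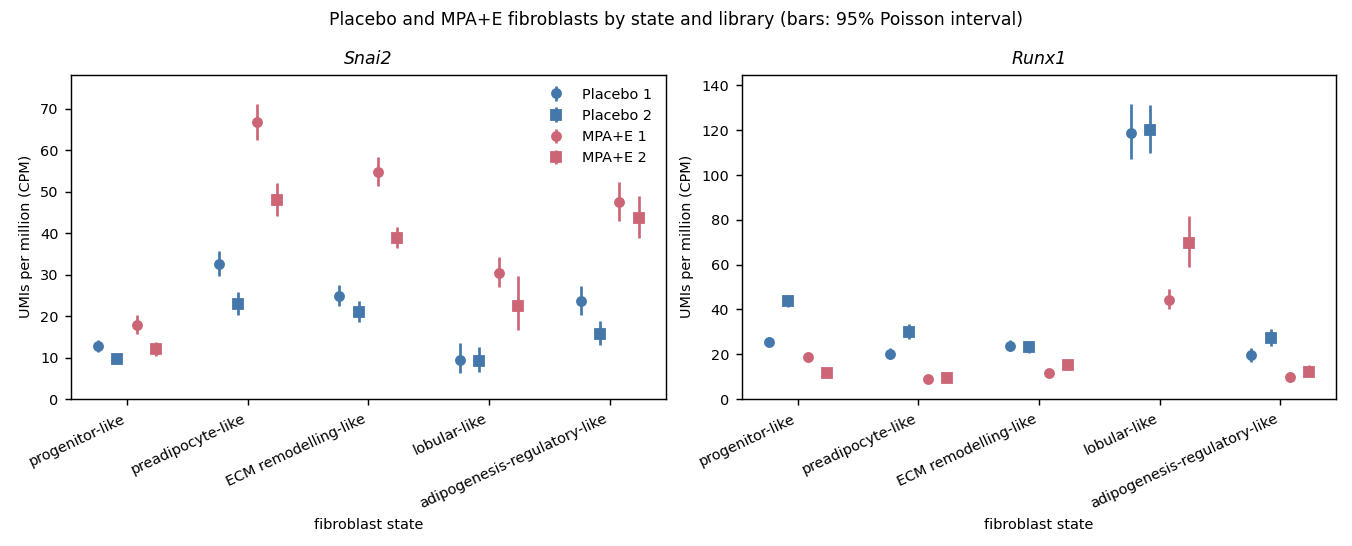
Level of Snai2 and Runx1 in 5 fibroblast states of the 2 placebo and 2 MPA+E libraries, in UMIs per 1000000 (CPM) with 95% Poisson intervals. Circles are replicate 1 and squares replicate 2. Snai2 in the MPA+E libraries lies between 11.97 CPM in the progenitor-like and 66.7 CPM in the preadipocyte-like state.

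MPA+E changed 2 of the 10 members relative to placebo, Snai2 upward and Runx1 downward, beside 4.33% of 15642 genes (2.69% higher, 1.64% lower). Snai2 measured 21.1 and 15.5 CPM under placebo and 44.7 and 35.4 CPM under MPA+E. The 2 MPA+E libraries were the highest of all 13, and the rise was 2.21 fold (log2 1.14 ± 0.15 SE, edgeR quasi-likelihood test with Benjamini-Hochberg adjustment, adjusted p = 0.025, n = 2 each). Without Placebo 1 or Placebo 2 the adjusted p was 0.081 and 0.13, with log2 values of 1.30 and 0.99.

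Runx1 measured 27.9 and 38.3 CPM under placebo and 15.1 and 12.7 CPM under MPA+E. The groups did not overlap, and it was 2.38 fold lower (log2 -1.25 ± 0.21 SE, edgeR, adjusted p = 0.045). The call was lost by limma-voom (0.052) and without the filter (0.056), and without Placebo 1 (0.052), Placebo 2 (0.11) or MPA+E 2 (0.061). The summed luminal markers moved with it, at 33.3 and 29.3 CPM under placebo and 6.58 and 7.29 CPM under MPA+E. Of that sum Cldn3 made up 3.48 and 3.08 CPM under placebo and 1.47 and 2.50 CPM under MPA+E. Krt8 and Krt18 were scarce and did not fall, at most 0.0987 and 0.230 CPM (both MPA+E 2). Krt19, most of that sum in the stage libraries, was a top gene of an unnamed cluster nearest the progenitor state at higher resolution. Progenitor-like cells were fewer under MPA+E, as given below. Endothelial markers moved against Runx1, at 14.6 and 14.7 CPM under placebo and 44.1 and 46.0 CPM under MPA+E. Pericyte markers were 20.7 and 19.6 CPM under placebo and 11.95 and 12.5 CPM under MPA+E. An unnamed cluster with pericyte markers, led by Myh11, Acta2 and Tagln, held 0.516% and 1.68% of placebo fibroblast barcodes. It held 0.990% and 4.62% of those under MPA+E. Basal epithelial markers were 3.80 and 3.73 CPM under placebo against 1.03 and 1.39 CPM, and muscle markers 4.12 and 4.06 against 3.64 and 3.63 CPM. Immediate early and heat shock genes summed to 37053 and 33887 CPM under placebo and 29599 and 31026 CPM under MPA+E, although Hspa1b, one of them, rose (log2 0.90, edgeR adjusted p = 0.040). Their part in the result was not tested. In Runx1 the tumour and the hormone comparison gave opposite signs, and these comparisons share no library.

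The other 8 members did not pass the test under MPA+E. Prrx1 measured 540.0 and 430.5 CPM under placebo and 360.2 and 337 CPM under MPA+E (log2 -0.46, edgeR adjusted p = 0.12), a difference that DESeq2 called (0.015). Prrx2 measured 58.2 and 48.1 against 77.9 and 61.6 CPM (log2 0.40, adjusted p = 0.17), and Runx2 27.7 and 18.3 against 31.1 and 31.9 CPM (log2 0.48, adjusted p = 0.24). Snai1 overlapped between the groups, at 11.5 and 6.16 against 16.3 and 9.73 CPM (log2 0.57, adjusted p = 0.45). Twist1, Twist2, Zeb1 and Zeb2 lay within log2 -0.24 to 0.08 (adjusted p = 0.43 to 0.99).

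Within states, Snai2 rose in the adipogenesis-regulatory-like, lobular-like and preadipocyte-like states. In the adipogenesis-regulatory-like state it measured 23.6 and 15.8 CPM under placebo and 47.4 and 43.7 CPM under MPA+E (log2 1.29 ± 0.17 SE, edgeR, adjusted p = 0.0098, beside 3.71% of genes). This call held without each library in turn. In the lobular-like state it measured 9.40 and 9.16 against 30.4 and 22.4 CPM (log2 1.58, adjusted p = 0.011, beside 2.56%), and the call was lost without Placebo 1 (0.053) or Placebo 2 (0.062).

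In the preadipocyte-like state Snai2 measured 32.6 and 22.9 against 66.7 and 48.0 CPM (log2 1.03, edgeR adjusted p = 0.041, beside 4.42%), and without Placebo 1 or Placebo 2 the adjusted p was 0.095 and 0.30. In the ECM remodelling-like state it measured 24.8 and 21.1 against 54.8 and 38.9 CPM (log2 0.96, adjusted p = 0.059, with 1.25% of genes called). In the progenitor-like state it measured 12.7 and 9.69 against 17.97 and 11.97 CPM, and the groups overlapped, with Placebo 1 above MPA+E 2 (log2 0.43, adjusted p = 0.43, 2.92% called).

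The difference between the hormone effect in the progenitor-like state and its mean over the other 4 states was tested directly. For Snai2 it was -0.80 ± 0.14 SE on the log2 scale (edgeR with library as a block, adjusted p = 0.0045), beside 4.04% of 13835 genes, and Snai2 was the only member called. Without Placebo 1 the adjusted p was 0.086 and without Placebo 2 it was 0.057. Progenitor-like cells made up 30.8% and 32.8% of placebo and 15.4% and 19.5% of MPA+E fibroblasts, while unnamed cells were 8.40% and 10.2% against 20.9% and 25.5%. Most unnamed cells in these libraries belonged to a cluster led by Cxcl13 and Pgr whose closest state was the progenitor one, with 2 of 7 progenitor markers at 2 fold, so the progenitor-like cells of both groups may not be the same population. The same libraries give all states, so states are not replicates of one another.

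Runx1 was lower under MPA+E in each of the 5 states, and 1 of these differences passed. In the preadipocyte-like state it measured 20.3 and 30.1 CPM under placebo and 9.09 and 9.42 CPM under MPA+E (log2 -1.46 ± 0.26 SE, edgeR adjusted p = 0.041), lost without Placebo 2 (0.17) or MPA+E 1 (0.056). In the lobular-like state, its highest, it measured 119 and 120 CPM against 44.4 and 69.6 CPM (log2 -1.06, adjusted p = 0.085). The other 3 states gave log2 values of -0.87 to -1.20 with adjusted p of 0.088 to 0.16.

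Thinned to 3000 UMIs, Snai2 was found in 5.88% and 4.52% of placebo and 11.03% and 9.04% of MPA+E fibroblasts (unthinned 19.6%, 14.1%, 37.6% and 22.7%), and Runx1 in 6.36% and 8.88% against 3.68% and 3.46% (unthinned 20.3%, 22.8%, 13.5% and 9.31%). Both genes kept their direction in the thinned cells.

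Under MPA+E 6 of the 81 tested genes of the related lists were called (7.41%, beside 4.33% of all genes), of which 0 were called without Placebo 1 or Placebo 2. Of 21 partners Smad3 alone fell (log2 -0.62, edgeR adjusted p = 0.029), of 15 tested mesenchymal targets Tnc alone fell (-1.53, 0.015), and of 13 upstream genes Tgfbr2 rose (0.63, 0.045) and Jag1 fell (-0.67, 0.028). Of 24 other transcription factors Nr2f1 rose (0.79) and the adipocyte factor Pparg fell (-1.01). The 6 tested paralogues did not pass by edgeR (smallest unadjusted p = 0.012, Tcf15), nor did Cldn3 and Cldn7, the tested epithelial genes (smallest unadjusted p = 0.074). The median log2 value was -0.13 over the partners and 0.0052 over all genes.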

How the data were processed

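Per the labels and the study's methods, the authors made the deposited UMI counts from 10x 3′ libraries with Cell Ranger (6.1.2 and build mm10 in the submitters' processing notes). The files hold raw counts of filtered barcodes with no normalization. Fibroblast barcodes were selected by the limits given in the report, without removing doublets; removal by Scrublet scores at 0.8% per 1000 barcodes (scanpy 1.11.5) was an alternative. Members and gene lists were chosen with earlier results of these data known, and every member is named in each comparison. List genes are named where called, at most 4 in each direction, apart from some named for comparison. The values of 1 gene of the lists are not reported here.

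CPM are summed UMIs of a gene per 1000000 summed UMIs of the library or state. States came from Seurat 5.3.0 (reciprocal PCA, 1000 features, 30 components, resolution 0.3), and a name needed 3 of its markers at 2 fold. Hormone fits used edgeR 4.0.16 (quasi-likelihood, TMM, filterByExpr), and tumour and hyperplasia fits limma-voom (limma 3.58.1) over 6 libraries, all with Benjamini-Hochberg adjustment over all genes tested and a call at adjusted p under 0.05. DESeq2 1.42.0 was an alternative. The scripts were tested on simulated data. Hyperplasia and tumour libraries of a number are the same mouse (correlation of their deviations from group means 0.0954 over 16001 genes), so those numbers pair them. The main tumour fits nevertheless had no mouse term, and the mouse block was an alternative. Nothing states that the 2 placebo or MPA+E replicates were processed apart, so p-values measure the spread between these libraries.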

Additional observations from a re-analysis of the deposited data

Results flagged for a closer look

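The hormone effect on Snai2 differed between the cells named progenitor-like and the other states. In the progenitor-like state its log2 change under MPA+E was 0.43, and the difference from the mean of the other 4 states was -0.80 (SE 0.14, edgeR quasi-likelihood test with the library as a block, adjusted p = 0.0045 over 13835 genes). The interaction was negative without each library in turn (-0.95 to -0.65), and without Placebo 1 or Placebo 2 its adjusted p was 0.086 and 0.057. Progenitor-like cells made up 30.8% and 32.8% of placebo and 15.4% and 19.5% of MPA+E fibroblasts, while unnamed cells were 8.40% and 10.2% against 20.9% and 25.5%. Most unnamed cells in these libraries belonged to a cluster led by Cxcl13 and Pgr whose closest state was the progenitor one, with 2 of 7 progenitor markers at 2 fold, so the progenitor-like cells of both groups may not be the same population. At resolution 0.6 a cluster led by Cxcl13 and Pgr was named progenitor-like, with 3 of 7 markers at 2 fold. The difference was not tested with such cells counted as progenitor-like, and the part of this naming in it was not tested.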

How the results depend on the processing

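Genes called under MPA+E numbered 678, and 1358 with DESeq2, 2451 with the replicate number as a block and 22 to 900 with 1 library left out. Placebo and MPA+E libraries share only a number (correlation of deviations 0.396), and with that replicate block Prrx1, Prrx2, Snai1 and Runx2 were called as well (adjusted p = 0.021, 0.014, 0.0051 and 0.0498). The difference between progenitor-like and other states called 559 genes, 1074 without the filter and 152 to 685 with 1 library left out. Tumour against hyperplasia called 4777, 2921 without the myofibroblastic-like cells of the tumours and 242 to 7120 with 1 library left out. Hyperplasia against normal called 2280, 4017 with DESeq2, 3471 with the mouse as a replicate block within the raGFP-Wnt1 libraries (no mouse links them to normal gland), 4810 with only the 4 libraries compared and 1 to 183 with 1 library left out, and Runx1 was called with DESeq2 (0.027) and with the 4 libraries (0.044). Member calls in states numbered 4 for the hormone (9 with DESeq2, 13 without the filter, 16 with the replicate block, 1 to 8 with 1 library left out) and 14 for the tumour (22 with the mouse block, 7 to 25 with 1 library left out). The mean share of cells with a UMI over members and libraries was 25.3% at 3000 UMIs, 19.2% at 2000, 34.3% at 5000 and 43.7% unthinned. Tumour against hyperplasia over all fibroblasts called 6107 genes with the mouse as a block, and no call of a member changed there. The cause of these shifts was not tested.

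Sign changes were followed for all members over all fibroblasts and in the difference between states. Within states they were followed for called members only, and none of those turned sign. The differences that turned sign had not passed the test. They were the hormone values of Twist1 (0.010 without the filter, 0.0047 with the replicate block, 0.0056 with limma-voom, -0.17 to 0.17 with 1 library left out) and Twist2 (0.00099 without the filter, 0.0013 with at least 100 UMIs of Dcn, Lum and Col1a2, -0.10 to 0.071 with 1 library left out). In hyperplasia they were Prrx1 (-0.014 with that limit of 100, -0.016 to 0.050 with 1 library left out), Snai2 (-0.021 at 5% mitochondrial UMIs, -0.081 to 0.14) and Zeb1 (-0.13 to 0.38). In the difference between states they were Prrx2 (-0.24 to 0.14), Snai1 (-0.28 to 0.21), Runx1 (-0.64 to 0.46) and Runx2 (-0.10 to 0.71), each with 1 library left out. With 1 library left out, the lone sample of its group is assumed to vary like the others. Twist1 was called between tumour and hyperplasia by DESeq2 (-0.40, 0.0496), and Snai1 and Zeb2 were lost there with only the 4 libraries compared (0.074 and 0.067). Snai1 in tumours (0.081) and Runx2 in hyperplasia (0.057) were lost at the limit of 100, Runx2 also at 5% mitochondrial UMIs (0.052), and Prrx2 in preadipocyte-like cells with edgeR (0.058). Leaving out clusters with markers of other cell types, an alternative chosen after the data were seen, changed no call of a member, and the count of 28 member and state pairs was 29 at resolution 0.6 and 27 with equal weight per cell.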
